A study of Mus musculus with 9 samples.

Results

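The genes described are the subunit genes of the mitochondrial respiratory chain, taken from both the nuclear and the mitochondrial genome. They were chosen by symbol among the protein-coding genes. The mitochondrial ones begin with mt-Nd, mt-Co, mt-Atp or mt-Cytb. The nuclear ones are the Ndufa, Ndufb, Ndufc, Ndufs and Ndufv genes with a number in the symbol, Sdha to Sdhd, all Uqcr genes, and the Cox4, Cox5, Cox6, Cox7 and Cox8 families. The rule gave 80 of the 35675 genes in the table. Of these, 67 are nuclear, with 37 in complex I, 4 in complex II, 8 in complex III and 18 in complex IV. The other 13 are mitochondrial, with 7 in complex I, 1 in complex III, 3 in complex IV and 2 in ATP synthase, which is also called complex V. The complexes follow the symbols. Ndufa4, whose protein is now counted with complex IV, and its relative Ndufa4l2 therefore stand with complex I, and Cox7a2l, which helps to join complexes III and IV into supercomplexes, stands with complex IV. Cyc1 and Ndufab1 encode further subunits that the symbols leave out. Cyc1 is given with the electron carriers below, and no value is given for Ndufab1.

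Polyadenylated RNA was sequenced from mouse embryonic fibroblasts (MEFs), which the labels trace to embryonal tissue. There were 3 libraries of MEFs with ectopic MyoD and small molecules written F/R/C, whose letters the labels do not spell out (MyoD F/R/C), 3 of MEFs with ectopic MyoD alone (MyoD) and 3 of untreated MEFs (MEF). All 9 libraries, the untreated ones included, carry the Dmdmdx genotype, a stop codon in the dystrophin gene that models Duchenne muscular dystrophy, so that no library stands for a healthy genotype. The labels give no vector, dose, duration or animal age, and the series asks how such fibroblasts can be turned into myogenic progenitors. Whether the 3 libraries of a group are separate cultures is not stated, so a p-value here covers library-to-library spread, which may be technical.

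The libraries held 21112071 to 24291056 estimated counts. Gene levels are in CPM, the counts divided by the TMM-adjusted library size, and a library with 0 counts allows up to 3 counts, or 0.113 to 0.144 CPM, for counting error only. Myod1, the introduced gene, had 293 ± 32.3 CPM in MyoD F/R/C, 11.7 ± 6.32 CPM in MyoD and 3.00 ± 2.82 CPM in MEF libraries (SD, n = 3 each), and introduced and endogenous transcripts were not told apart. The 15 skeletal muscle markers examined, sarcomere genes for the most part, summed to 37672 to 52389 CPM in MyoD F/R/C, 1232 to 3631 CPM in MyoD and 5.80 to 622 CPM in MEF libraries, and the highest of these MEF values was that of replicate 3, which therefore stood apart from the other MEF libraries in muscle transcripts. The 10 fibroblast markers summed to 5439 to 8294 CPM in MyoD F/R/C, 7846 to 34358 CPM in MyoD and 18542 to 82015 CPM in MEF libraries, so fibroblast transcripts were present in every library. In bulk RNA, fewer cells of a type and less RNA per cell cannot be told apart, and the part that the mixture of cells has in the values below was not tested.

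The respiratory chain carries electrons from NADH (complex I) and succinate (complex II) through coenzyme Q to complex III, and from there through cytochrome c to complex IV, where oxygen is reduced. Complexes I, III and IV pump protons as they do so, and ATP synthase uses the gradient to make ATP. Complex II is built from nuclear subunits alone, while every other complex joins nuclear subunits to a few that are encoded and translated in the mitochondrion. Skeletal muscle is rich in these complexes, and several complex IV subunits have a separate isoform that is expressed mainly in heart and skeletal muscle.

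Both sets of genes were higher in MyoD F/R/C libraries than in the other groups. The 67 nuclear genes together had 6638, 7183 and 11589 CPM in MyoD F/R/C libraries, 4480, 4083 and 4686 CPM in MyoD libraries and 3969, 4344 and 4410 CPM in MEF libraries. The 13 mitochondrial genes together had 31328, 16218 and 29673 CPM in MyoD F/R/C libraries, 10919, 9990 and 12374 CPM in MyoD libraries and 11380, 7804 and 8414 CPM in MEF libraries. For both sums the MyoD F/R/C libraries lay above all the others, while MyoD and MEF libraries overlapped. The high nuclear sum came from MyoD F/R/C replicate 3, and the low mitochondrial sum from replicate 2.

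The size of these differences depended on the scale. The mean nuclear sum in MyoD F/R/C libraries was 2.00 times that in MEF libraries in CPM and 1.48 times in TPM, the deposited unit that divides by transcript length and has the same total in each library. The mean mitochondrial sum was 2.80 times that of MEF libraries in CPM and 2.15 times in TPM. In TPM the nuclear sums were 21434 ± 3684 in MyoD F/R/C, 15287 ± 473 in MyoD and 14479 ± 916 in MEF libraries (SD, n = 3 each). The mitochondrial sums were 42887 ± 15807 TPM in MyoD F/R/C, 23987 ± 808 TPM in MyoD and 19969 ± 4444 TPM in MEF libraries.

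**Figure D1:**
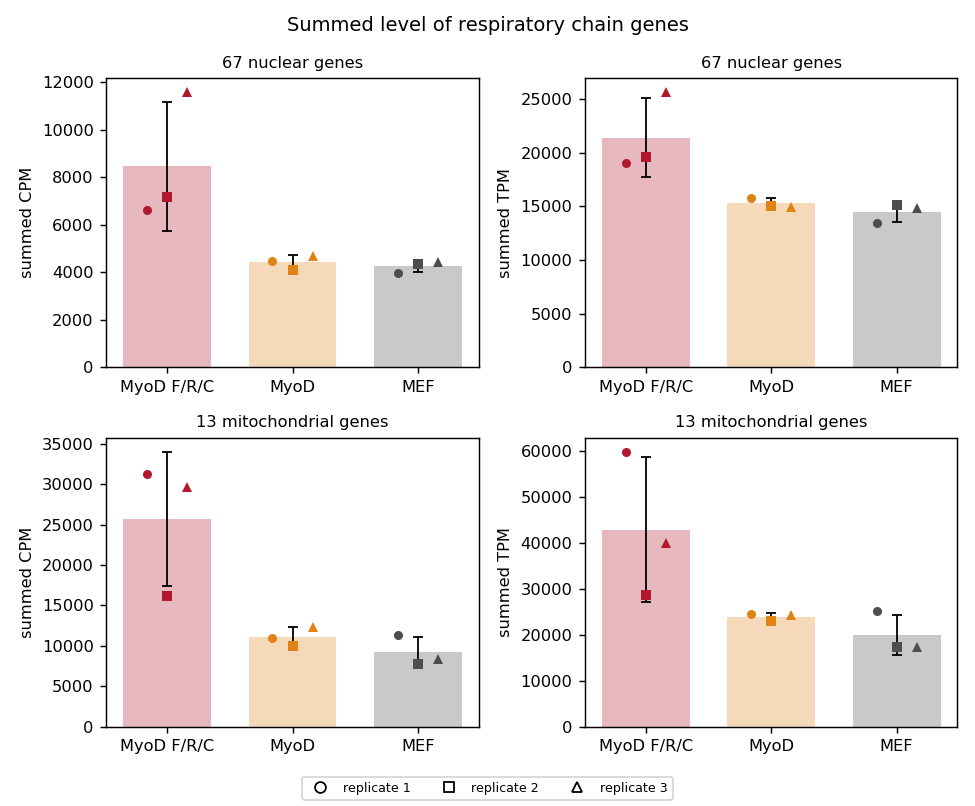
Summed level of the 67 nuclear (top) and 13 mitochondrial (bottom) respiratory chain genes in CPM (left) and TPM (right), with a point for each library, bars at the group mean and error bars of 1 SD (n = 3). The MyoD F/R/C libraries lie above the other groups in all 4 panels, with replicate 3 highest for the nuclear genes and replicate 2 lowest for the mitochondrial genes in CPM.

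Of the 67 nuclear genes, 65 passed the filter on low counts and were tested. The remaining pair, Cox7b2 and Cox8c, which encode testis-type complex IV subunits, had 0 counts in every library. Between MyoD F/R/C and MEF libraries, 45 of the 65 rose, 1 fell and 19 did not pass the test (edgeR quasi-likelihood F test, Benjamini-Hochberg adjusted p under 0.05 over 15714 genes). The background in that comparison was 37.6% of all genes tested called, 19.5% of them as higher and 18.1% as lower. The log2 fold change was positive for 63 of the 65, with a median of 1.06 beside -0.04 over all genes tested. For 57 of the 65 every MyoD F/R/C library lay above every MEF library, where 27.1% of all genes tested did so, and for 1 every MyoD F/R/C library lay below, where 26% did so. At an unadjusted p under 0.05 there were 56, beside 47.8% of all genes. Against MyoD libraries, which were compared with the same MyoD F/R/C libraries, 44 rose and 1 fell, with 33.9% of all genes called (17.8% higher and 16.1% lower). At an unadjusted p under 0.05 there were 55, beside 45.4% of all genes. There the median was 1.00, beside -0.02 over all genes, and 56 genes were higher and 1 lower without overlap, against 26.6% and 23.2% of all genes. Without MyoD F/R/C replicate 3 the medians were 0.72 against MEF and 0.66 against MyoD, and without MyoD replicate 2 the genes called against MyoD numbered 25, where 3620 of 16130 genes were called in all. Without MEF replicate 3, the MEF library with muscle transcripts, 36 rose and 1 fell against MEF.

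The nuclear genes of complex I, the NADH dehydrogenase, had log2 fold changes of 0.09 to 3.15 between MyoD F/R/C and MEF libraries, all of them positive. Of the 37, 23 rose, which is 62.2% beside 19.5% of all genes tested, and the median was 0.92. These fold changes are on the count scale. In TPM their sum was 9375 ± 1630 in MyoD F/R/C and 6653 ± 419 in MEF libraries (SD, n = 3 each). On that scale some of the genes overlapped. Ndufa1, for example, had 160, 149 and 208 TPM in MyoD F/R/C and 161, 214 and 197 TPM in MEF libraries. Of the 7 core subunits, which carry the flavin, the iron-sulfur clusters and the quinone site, 6 rose (median 1.10), the exception being Ndufs8 (edgeR adjusted p = 0.0571), and of the 30 accessory subunits 17 rose (median 0.79).

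Ndufa10, Ndufa9 and Ndufb5 encode accessory subunits. Ndufa10 had 155, 183 and 272 CPM in MyoD F/R/C, 66.7, 68.8 and 84.3 CPM in MyoD and 57.8, 71.0 and 74.8 CPM in MEF libraries, and rose by 1.58 ± 0.24 on the log2 scale against MEF (SE, edgeR adjusted p = 0.00172) and by 1.47 ± 0.24 against MyoD (edgeR adjusted p = 0.00303). Of its TPM, 40.3%, 30.9% and 23.9% came from single transcripts annotated as processed transcript, nonsense-mediated decay and retained intron. The main protein-coding transcript, Ndufa10-201, held 3.89%. It had 11.9, 10.1 and 17.6 TPM in MyoD F/R/C, 5.67, 10.1 and 13.3 in MyoD and 4.23, 10.6 and 11.3 in MEF libraries. Those values overlapped. Ndufa9 averaged 132 ± 48.7, 49.4 ± 6.93 and 49.8 ± 4.95 CPM in MyoD F/R/C, MyoD and MEF libraries (SD, n = 3 each) and rose by 1.41 ± 0.26 against MEF (edgeR adjusted p = 0.00379). Ndufb5 had 78.3, 84.5 and 126 CPM in MyoD F/R/C, 42.1, 36.6 and 36.1 CPM in MyoD and 39.6, 41.3 and 40.2 CPM in MEF libraries, and rose by 1.25 ± 0.20 against MEF (edgeR adjusted p = 0.00233). In each of the 3 genes MyoD F/R/C replicate 3 was the highest library of all, and MyoD and MEF libraries overlapped. Of the 31-base stretches of Ndufb5 transcripts, 11.9% also occur in other genes, among them Mrpl47 on the opposite strand.

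Complex II, the succinate dehydrogenase that also serves the citrate cycle, had the smallest median of the nuclear sets, 0.71. Sdhd, a membrane anchor, had 126, 151 and 196 CPM in MyoD F/R/C libraries, 81.9, 78.2 and 77.1 CPM in MyoD libraries and 78.9, 77.9 and 80.2 CPM in MEF libraries, and rose by 1.00 ± 0.18 against MEF (edgeR adjusted p = 0.00379). Sdhb, the iron-sulfur subunit, rose by 0.89 ± 0.22 against MEF (edgeR adjusted p = 0.013) and by 0.88 ± 0.22 against MyoD (edgeR adjusted p = 0.0159), though without MEF replicate 2 or MyoD replicate 2 the adjusted p was 0.0530 or 0.0618. Sdha, the flavoprotein, and Sdhc, the other anchor, did not pass the test, with 0.43 ± 0.17 (edgeR adjusted p = 0.0713) and 0.54 ± 0.20 (edgeR adjusted p = 0.0663) against MEF, though DESeq2 called both, and Sdhc was also called with the replicate block and without MyoD F/R/C replicate 1. In CPM the MyoD F/R/C libraries lay above every MEF and every MyoD library for all 4 genes. Their summed TPM was 866 to 956 in MyoD F/R/C, 720 to 862 in MyoD and 723 to 833 in MEF libraries. Sdha-201, with 96.6% of the Sdha TPM, had 150, 163 and 137 in MyoD F/R/C and 138, 164 and 132 in MEF libraries. These values overlapped, as did those of the main Sdhc transcript, while those of the main Sdhb and Sdhd transcripts did not.

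Complex III, the cytochrome bc1 complex, was the set in which all 8 nuclear genes rose in both comparisons, with medians of 1.16 against MEF and 1.08 against MyoD. Of all genes tested, 19.5% and 17.8% were called higher in these comparisons. Uqcrfs1, the Rieske iron-sulfur protein (chromosome 13, 30540308 to 30545362 on the minus strand of GRCm38), had 128, 138 and 209 CPM in MyoD F/R/C libraries, 44.3, 40.8 and 55.2 CPM in MyoD libraries and 41.6, 41.5 and 51.4 CPM in MEF libraries. It had the smallest adjusted p of the 65 nuclear genes, with rises of 1.82 ± 0.23 against MEF (edgeR adjusted p = 0.000899) and 1.76 ± 0.23 against MyoD (edgeR adjusted p = 0.00147). The lowest MyoD F/R/C library lay well above the highest of the other 6. The core proteins Uqcrc1 and Uqcrc2 rose by 1.18 ± 0.20 and 1.15 ± 0.16 against MEF, and Uqcrh, the hinge protein near cytochrome c1, by 1.51 ± 0.27 (edgeR adjusted p = 0.00271, 0.00119 and 0.00331). Uqcrc2 had 177, 205 and 208 CPM in MyoD F/R/C libraries, 90.0, 81.3 and 103 CPM in MyoD libraries and 90.7, 85.9 and 90.0 CPM in MEF libraries, a spread much smaller than that of most members. Of the 31-base stretches of Uqcrc2 transcripts, 18.5% also occur in Pdzd9, which overlaps it on the opposite strand.

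Complex IV, the cytochrome c oxidase, held both the highest and the lowest log2 fold changes. Of its 16 tested nuclear genes, 12 rose and 1 fell against MEF, with a median of 1.23, and the same counts held against MyoD, with a median of 1.19. The rises were 75% of the set each time, beside 19.5% and 17.8% of all genes tested. Cox5b had the highest length-adjusted level of the nuclear subunits in MyoD F/R/C and MyoD libraries, with 1220 ± 317 TPM in MyoD F/R/C, 753 ± 42.6 TPM in MyoD and 693 ± 82.6 TPM in MEF libraries (SD, n = 3 each). That level sums all transcripts of the gene. Cox5b-205, annotated as a processed transcript, held 85.1% of it, and Cox5b-204, the main protein-coding one, 12.4%. Of the 31-base stretches of Cox5b and Cox4i1 transcripts, 16.1% and 12.9% also occur in other genes. Cox4i1, the broadly expressed form of subunit 4, had 1142 ± 200 TPM in MyoD F/R/C, 705 ± 45.6 TPM in MyoD and 639 ± 65.1 TPM in MEF libraries. The levels of Cox5b and Cox4i1 lay within each other's spread in each group. In MEF libraries Cox6a1 stood above both, at 714 ± 62.2 TPM, also within their spread. In MyoD F/R/C libraries Cox6a1 lay below both, at 444, 472 and 541 TPM. Cox7a2l had 261, 336 and 519 CPM in MyoD F/R/C, 136, 124 and 140 CPM in MyoD and 92.3, 129 and 121 CPM in MEF libraries, and rose by 1.71 ± 0.27 against MEF (edgeR adjusted p = 0.0021). Cox4i1 rose by 1.22 ± 0.26 (edgeR adjusted p = 0.00715) and Cox7b by 0.95 ± 0.26 (edgeR adjusted p = 0.0209) against MEF, the call for Cox7b being lost without MEF replicate 2, MEF replicate 3 or MyoD F/R/C replicate 3 (adjusted p up to 0.0856). Of the Cox7b TPM, 65.7% was in a transcript annotated as retained intron and 33.8% in a protein-coding one.

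**Figure D2:**
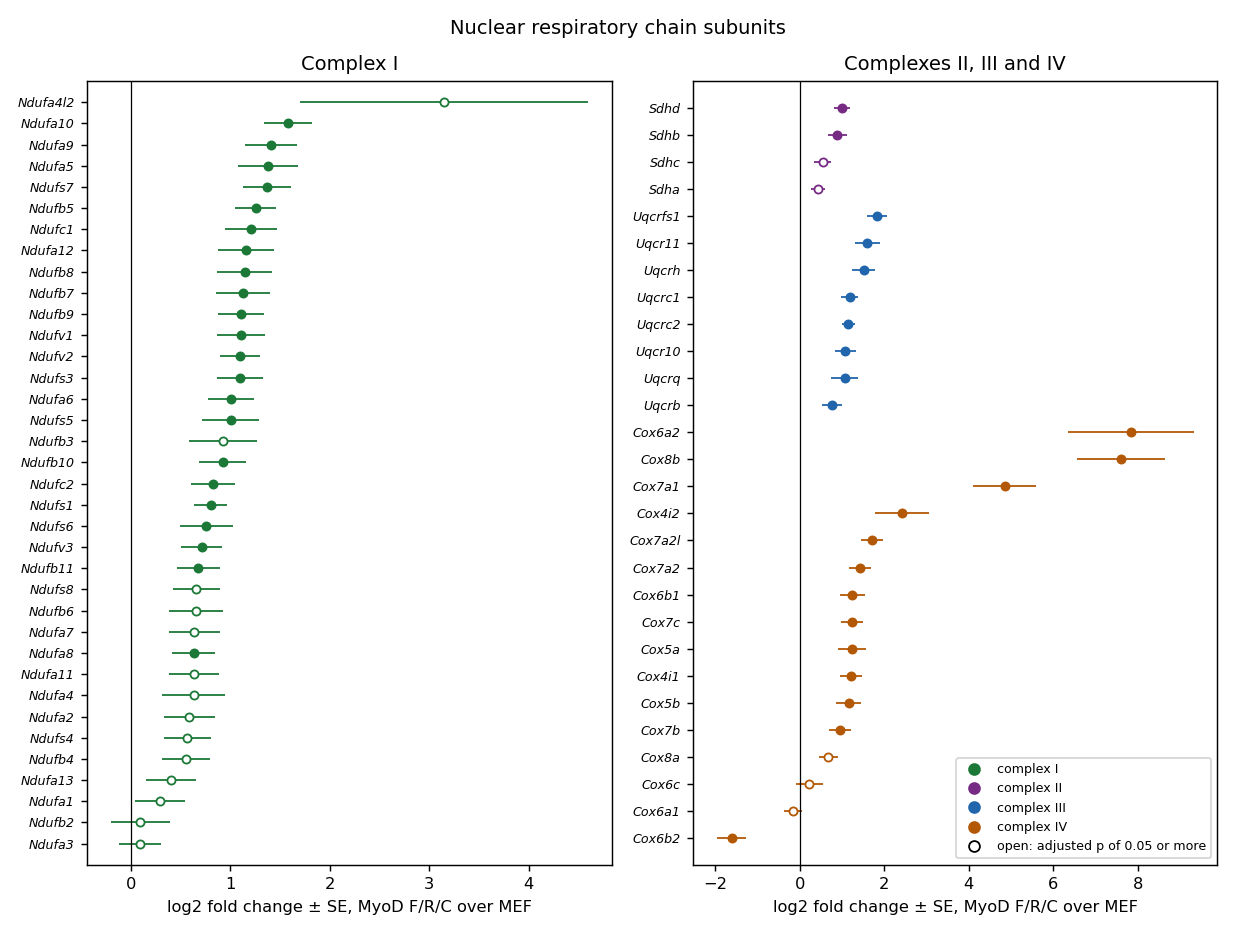
Log2 fold change ± SE of 64 of the 65 tested nuclear genes, MyoD F/R/C over MEF, with complex I on the left and complexes II, III and IV on the right; open points have an adjusted p of 0.05 or more. Most genes lie between 0 and 2, all 8 genes of complex III are filled, and Cox6a2, Cox8b and Cox7a1 stand far to the right of the other complex IV genes while Cox6b2 stands on the left.

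The complex IV genes with tissue-specific isoforms separated by isoform. Cox6a2, Cox7a1 and Cox8b encode the heart and skeletal muscle forms of subunits 6a, 7a and 8, and Cox6a1, Cox7a2 and Cox8a the forms found in most tissues. Cox6a2 (chromosome 7, 128205435 to 128206387, minus strand, GRCm38) had 2531, 2900 and 4655 estimated counts in MyoD F/R/C libraries, 53, 75 and 230 in MyoD libraries and 0, 0 and 44 in MEF libraries. It rose by 7.84 ± 1.48 on the log2 scale against MEF (edgeR adjusted p = 0.00431) and by 4.83 ± 1.26 against MyoD (edgeR adjusted p = 0.019). No groups overlapped, and the 44 counts in MEF replicate 3 stood in the MEF library with the most muscle marker RNA. The value against MEF ranged from 7.17 to 14.81 over the alternatives, the high end being fits without MEF replicate 3, where the other MEF libraries have 0 counts and the fitted fold is no bound. The call against MyoD was lost without MyoD replicate 1, MyoD replicate 2 or MyoD F/R/C replicate 3 (edgeR adjusted p up to 0.0733). Over its exons, 6.15% of the 31-base stretches of Cox6a2 transcripts also occur in Itgad, which overlaps it on the opposite strand, so a small part of its counts could come from that gene.

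Cox8b (chromosome 7, 140898945 to 140900446, minus strand) had 536, 489 and 781 counts in MyoD F/R/C libraries, 24, 24 and 69 in MyoD libraries and 1, 0 and 8 in MEF libraries. It rose by 7.61 ± 1.04 against MEF (edgeR adjusted p = 0.00115) and by 3.96 ± 0.83 against MyoD (edgeR adjusted p = 0.00831). Its value against MEF ranged from 6.94 to 10.03, again highest without MEF replicate 3. Every MyoD F/R/C library was above every MyoD library, and every MyoD library above every MEF library. Cox7a1 (chromosome 7, 30184144 to 30186078, plus strand) had 157, 125 and 230 counts in MyoD F/R/C libraries, 15, 6 and 13 in MyoD libraries and 10, 7 and 1 in MEF libraries. It rose by 4.85 ± 0.75 against MEF (edgeR adjusted p = 0.00191) and by 3.93 ± 0.71 against MyoD (edgeR adjusted p = 0.00468), and its MyoD and MEF libraries overlapped.

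Of these 3 partner genes, Cox7a2 rose by 1.43 ± 0.26 against MEF (edgeR adjusted p = 0.00391), with 110, 112 and 211 CPM in MyoD F/R/C, 56.7, 50.6 and 64.4 CPM in MyoD and 51.9, 52.9 and 55.7 CPM in MEF libraries. Cox8a had a log2 fold change of 0.68 ± 0.24 against MEF (edgeR adjusted p = 0.0505), just short of the threshold, and was called by DESeq2, with DESeq2 size factors in edgeR, with the replicate block and without MyoD F/R/C replicate 1 (adjusted p down to 0.022). Cox6a1 had one of -0.16 ± 0.21 (edgeR adjusted p = 0.58), with 107, 120 and 178 CPM in MyoD F/R/C libraries, 149, 128 and 153 CPM in MyoD libraries and 139, 153 and 161 CPM in MEF libraries, which overlapped in all groups. Its value against MyoD, -0.09 ± 0.21, was 0.06 without MyoD F/R/C replicate 1. In TPM Cox6a1 had 444, 472 and 541 in MyoD F/R/C, 726, 666 and 682 in MyoD and 642, 746 and 754 in MEF libraries. On that scale every MyoD F/R/C library lay below every MyoD and MEF library. The Cox6a2 share below is in TPM and so holds this difference in Cox6a1 as well.

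As a share of the summed TPM of the pair, Cox6a2 made up 40.4%, 43.0% and 45.9% of Cox6a2 and Cox6a1 in MyoD F/R/C libraries, 1.08%, 1.51% and 4.75% in MyoD libraries and 0%, 0% and 0.862% in MEF libraries. Cox8b made up 22.2%, 18.0% and 21.6% of Cox8b and Cox8a in MyoD F/R/C libraries, 1.60%, 1.31% and 4.15% in MyoD libraries and 0.0886%, 0% and 0.487% in MEF libraries. Cox7a1 made up 11.1%, 9.49% and 9.87% of Cox7a1 and Cox7a2 in MyoD F/R/C libraries, 2.34%, 0.895% and 1.89% in MyoD libraries and 1.84%, 1.06% and 0.163% in MEF libraries. In MyoD F/R/C libraries the 3 muscle forms differed in their share, Cox6a2 being nearest to its partner's level and Cox7a1 farthest from it. On this scale the partner, with all its transcripts summed, stayed the larger of each pair. Of the Cox7a2 TPM, 57.4% was in a transcript annotated as processed transcript and 42.3% in a protein-coding one. The protein-coding one had 164, 148 and 221 TPM in MyoD F/R/C libraries, beside 45.6, 37.7 and 57.1 TPM for Cox7a1. The place of Cox7a1 behind Cox8b thus depends on counting both Cox7a2 transcripts. In CPM the mean shares in MyoD F/R/C libraries were 52.6% for Cox6a2, 12.0% for Cox8b and 5.16% for Cox7a1, beside 43.1%, 20.6% and 10.2% in TPM. In MyoD libraries replicate 3 had the highest shares of Cox6a2 and Cox8b.

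The heart uses the same 3 isoforms, and brown fat some of them, so the markers of those cells were examined. Of 10 heart markers, which summed to 18.6 to 36.3 CPM in MyoD F/R/C, 17.5 to 57.5 CPM in MyoD and 16.7 to 38.6 CPM in MEF libraries, Myl7 had at most 1 count in any library and Nkx2-5 at most 4. Of the 6 heart markers tested, Myh6, Nppb and Sln rose against MEF, with means of 4.32, 4.26 and 13.2 CPM in MyoD F/R/C libraries, and Hand2 fell. Of 10 brown fat markers, which summed to 88.8 to 296 CPM in MyoD F/R/C, 97.2 to 149 CPM in MyoD and 131 to 198 CPM in MEF libraries, Ucp1, the defining uncoupling protein, had at most 3 counts, Prdm16 fell and Cidea rose to 8.87 ± 4.42 CPM in MyoD F/R/C libraries, against 0.0461 ± 0.0799 CPM in MEF libraries. The 10 macrophage markers summed to 14.1 to 29.9 CPM in MyoD F/R/C, 10.01 to 32 CPM in MyoD and 6.64 to 22.4 CPM in MEF libraries, the 10 endothelial markers to 23.2 to 26.9, 15.2 to 16 and 21.3 to 62.8 CPM in the same groups, and the 10 epithelial markers to 12.6 to 18.5, 2.51 to 14 and 1.07 to 3.00 CPM. The part of such cells in the values of the isoforms was not tested.

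Other pairs of paralogs did not follow 1 pattern. Cox4i2, a form of subunit 4 known for its use at low oxygen and in lung, had 113, 160 and 151 counts in MyoD F/R/C libraries, 37, 10 and 8 in MyoD libraries and 38, 19 and 23 in MEF libraries, and rose by 2.42 ± 0.64 against MEF (edgeR adjusted p = 0.0171). That call was lost without MEF replicate 2, MEF replicate 3 or MyoD F/R/C replicate 3 (edgeR adjusted p up to 0.0681), and Cox4i2 held at most 1.93% of the pair with Cox4i1 in any library. Ndufa4l2, a relative of Ndufa4 known as a target of hypoxia-inducible factor, had 972, 996 and 1440 counts in MyoD F/R/C libraries, 159, 8 and 9 in MyoD libraries and 347, 15 and 18 in MEF libraries. It was above the other groups in every MyoD F/R/C library but did not pass the test, with 3.15 ± 1.45 against MEF (edgeR adjusted p = 0.118) and 4.31 ± 1.53 against MyoD (edgeR adjusted p = 0.0582), replicate 1 being far above replicates 2 and 3 in both of the other groups. It was called against MEF by DESeq2, with the replicate block and without MEF replicate 1 (log2 fold change up to 6.11, adjusted p down to 0.0101), and against MyoD under 7 of 19 alternatives (up to 7.13, adjusted p down to 0.00189), the fit without MyoD replicate 1 among them. Ndufa4 itself had 0.63 ± 0.31 against MEF (edgeR adjusted p = 0.142).

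Cox6b2 was the 1 nuclear member that fell. It encodes the form of subunit 6b known from testis, and Cox6b1 the form of other tissues. Cox6b2 had 455, 523 and 449 counts in MyoD F/R/C libraries, 2422, 2667 and 973 in MyoD libraries and 1316, 2222 and 1023 in MEF libraries, and changed by -1.62 ± 0.35 against MEF (edgeR adjusted p = 0.00743) and by -1.99 ± 0.35 against MyoD (edgeR adjusted p = 0.00426). Every MyoD F/R/C library was below the other 6. Cox6b1 rose by 1.24 ± 0.29 against MEF (edgeR adjusted p = 0.0113). Cox6b2 made up 11.4%, 14.1% and 7.36% of the pair's TPM in MyoD F/R/C libraries, 58.1%, 57.3% and 29.4% in MyoD libraries and 44.0%, 54.0% and 34.2% in MEF libraries, and replicate 3 was lowest in each group. Of 10 male germ cell markers, Cyct, Tnp1, Prm1 and Prm2 had 0 counts in all 9 libraries, while Ddx4 had 41, 29 and 46 counts in MyoD F/R/C, 742, 914 and 3 in MyoD and 242, 591 and 19 in MEF libraries.

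**Figure D3:**
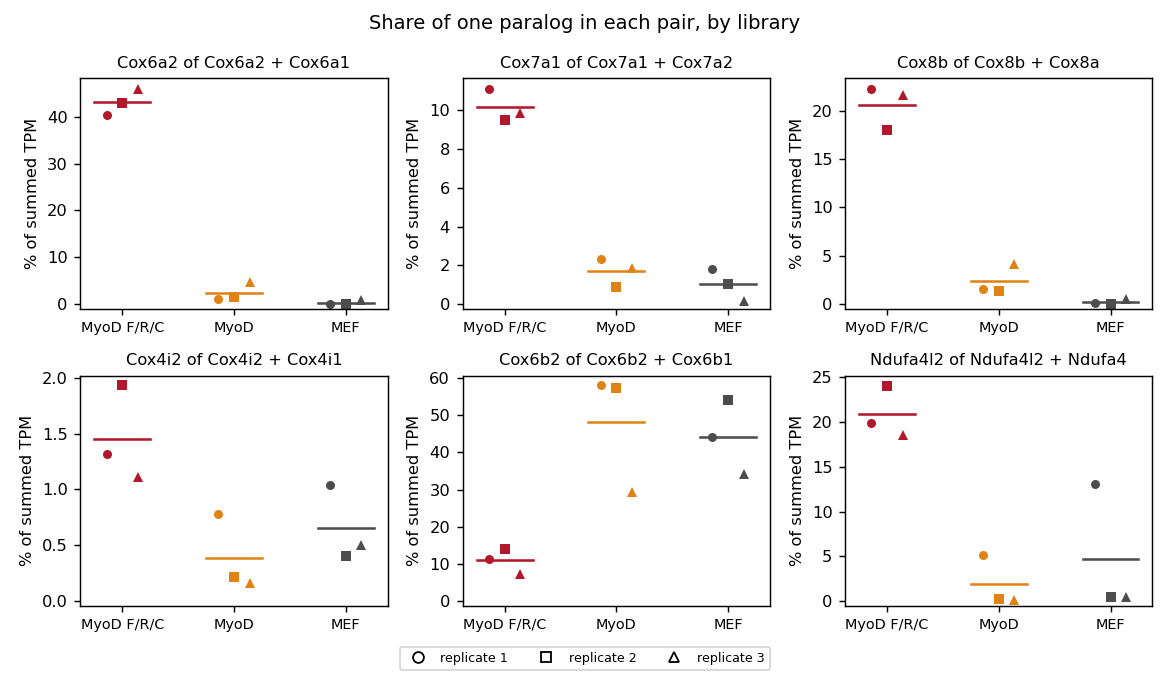
Share of the first-named paralog in the summed TPM of each of 6 pairs, by library and group, with lines at the group means. Cox6a2, Cox7a1 and Cox8b have their highest shares in the 3 MyoD F/R/C libraries, Cox6b2 its lowest, and Ndufa4l2 is raised in replicate 1 of the MyoD and MEF groups.

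The upstream sequences of the pairs are shown because the isoforms moved apart. Promoter windows from RefSeq (GRCm38.p6, 250 bases before each annotated start) matched 53 of the 67 nuclear members by symbol, in 55 windows; none matched Cox6a2, Cox4i2 or Ndufa4l2. Each is written 5′ to 3′ on the gene's strand, with matches of the palindromic NRF1 motif or of CANNTG (the E-box, which MyoD binds as CAGCTG among other forms) in capitals. The windows are chr7:140900447-140900696 (minus strand) for Cox8b, chr19:7217617-7217866 (minus) for Cox8a, chr7:30183921-30184170 (plus) for Cox7a1, chr9:79759854-79760103 (minus) for Cox7a2 and chr5:115348959-115349208 (minus) for Cox6a1.
Cox8b: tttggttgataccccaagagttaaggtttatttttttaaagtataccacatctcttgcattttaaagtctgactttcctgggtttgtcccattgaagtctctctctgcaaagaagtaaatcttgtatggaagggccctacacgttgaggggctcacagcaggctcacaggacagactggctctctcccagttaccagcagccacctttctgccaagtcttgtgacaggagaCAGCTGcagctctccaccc
Cox8a: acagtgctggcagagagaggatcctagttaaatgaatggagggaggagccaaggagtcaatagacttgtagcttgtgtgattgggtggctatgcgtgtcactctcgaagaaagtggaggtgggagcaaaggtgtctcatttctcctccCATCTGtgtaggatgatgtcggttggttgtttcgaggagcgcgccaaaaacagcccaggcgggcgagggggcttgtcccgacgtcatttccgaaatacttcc
Cox7a1: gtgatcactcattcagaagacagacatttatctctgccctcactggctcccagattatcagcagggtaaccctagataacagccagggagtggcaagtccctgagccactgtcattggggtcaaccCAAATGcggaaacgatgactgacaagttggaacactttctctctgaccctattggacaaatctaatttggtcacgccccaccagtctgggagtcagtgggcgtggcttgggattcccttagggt
Cox7a2: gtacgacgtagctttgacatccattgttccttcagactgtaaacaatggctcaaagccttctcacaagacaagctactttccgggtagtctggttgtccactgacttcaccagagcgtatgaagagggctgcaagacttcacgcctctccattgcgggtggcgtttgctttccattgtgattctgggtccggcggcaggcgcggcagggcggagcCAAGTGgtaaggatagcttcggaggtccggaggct
Cox6a1: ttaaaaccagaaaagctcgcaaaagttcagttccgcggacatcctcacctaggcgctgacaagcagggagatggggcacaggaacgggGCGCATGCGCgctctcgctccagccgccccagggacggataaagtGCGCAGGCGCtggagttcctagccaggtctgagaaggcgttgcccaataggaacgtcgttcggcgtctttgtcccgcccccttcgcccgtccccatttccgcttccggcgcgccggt
The capitals of Cox8b are a CAGCTG that begins 19 bases before the start. The other E-boxes begin 102 bases before the start in Cox8a, 124 in Cox7a1 and 35 in Cox7a2, and the NRF1 matches of Cox6a1 begin 162 and 117 bases before it.

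Matches were counted on both strands of all windows. The NRF1 motif, matched by the capitals of Cox6a1, was in 18.2% of the 55 member windows and in 3.74% of the 32851 windows in the table. CANNTG was in 58.2% of the member windows and 66.2% of all, and CAGCTG, which is contained in it, in 9.09% and 13%. AAGGTCA (the site of estrogen-related receptors) was in 5.45% and 4.08%, the MEF2 motif in 1.82% and 3.20%, and CCGGAAGT (GABPA and other ETS factors) in 3.64% and 2.88%. AAGATGGC (YY1) was in none of the member windows and in 1.56% of all. A match describes these letters in this window and was not tested for binding.

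The mitochondrial genes, which the nucleus does not encode and which are transcribed as long precursors from both strands of the mitochondrial genome, all rose in MyoD F/R/C libraries against MEF. All 13 passed the test, with log2 fold changes of 0.94 to 1.90 and a median of 1.46, and in 12 the groups did not overlap. Of all genes tested, 37.6% were called in either direction, 19.5% were called higher and 27.1% were higher without overlap. Against MyoD libraries 8 of the 13 rose, with values of 0.74 to 1.62 and a median of 1.16. There 17.8% of all genes were called higher, and the median over all genes was -0.02. The calls depended on single libraries. Against MEF, 6 of 13 were called without MEF replicate 2, where 4372 of 16227 genes were called in all. The number was 7 without MEF replicate 3 (5375 of 16283 genes in all) and 8 without MyoD F/R/C replicate 1 (4873 of 16098). Against MyoD, 3 were called without MyoD replicate 2 (3620 of 16130 genes in all), and 4 without MyoD replicate 1 (3734 of 16319), MyoD F/R/C replicate 1 (4202 of 16098) or MyoD F/R/C replicate 3 (3834 of 16160). Fewer genes were thus called in all in each of these fits than with all libraries, where 5916 and 5327 of 15714 were called. The median stayed between 1.30 and 1.71 against MEF and between 1.01 and 1.41 against MyoD when any 1 library was left out.

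The highest log2 fold changes against MEF were those of mt-Co2 and mt-Co3, core subunits of complex IV. mt-Co2 (chromosome M, 7013 to 7696), the subunit that receives electrons from cytochrome c, had 3179, 1523 and 3761 CPM in MyoD F/R/C libraries, 887, 869 and 1010 CPM in MyoD libraries and 968, 626 and 673 CPM in MEF libraries. It rose by 1.90 ± 0.37 against MEF (edgeR adjusted p = 0.00464) and by 1.61 ± 0.36 against MyoD (edgeR adjusted p = 0.0106). mt-Co3 (chromosome M, 8607 to 9390) had 3203, 1842 and 3627 CPM in MyoD F/R/C, 1165, 841 and 999 CPM in MyoD and 1129, 670 and 745 CPM in MEF libraries, and rose by 1.77 ± 0.34 and 1.53 ± 0.34 (edgeR adjusted p = 0.00481 and 0.0103). mt-Co1 (chromosome M, 5328 to 6872), the catalytic subunit, had 10437, 5711 and 9949 CPM in MyoD F/R/C, 3271, 3249 and 4438 CPM in MyoD and 3550, 2482 and 3080 CPM in MEF libraries, and rose by 1.52 ± 0.35 and 1.25 ± 0.34 (edgeR adjusted p = 0.00955 and 0.0232). In each of them MyoD F/R/C replicate 2 was the lowest of its group and still above all 6 other libraries, and the call of mt-Co1 against MyoD was lost without MyoD replicate 1, MyoD replicate 2, MyoD F/R/C replicate 1 or MyoD F/R/C replicate 3 (edgeR adjusted p up to 0.0848).

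mt-Cytb, the cytochrome b of complex III, had 3013, 1538 and 2969 CPM in MyoD F/R/C libraries, 1078, 1060 and 1222 CPM in MyoD libraries and 1134, 812 and 782 CPM in MEF libraries, and rose by 1.46 ± 0.32 and 1.16 ± 0.32 (edgeR adjusted p = 0.00786 and 0.0222). The call of mt-Cytb against MyoD was lost without the same 4 libraries as that of mt-Co1 (up to 0.0772). The 7 complex I genes, which encode the proton-pumping membrane arm, had log2 fold changes of 1.13 to 1.69 against MEF. The one with the highest CPM, mt-Nd4, had 2674, 1164 and 1912 CPM in MyoD F/R/C, 1014, 933 and 1031 CPM in MyoD and 1039, 739 and 666 CPM in MEF libraries, and rose by 1.23 ± 0.33 against MEF (edgeR adjusted p = 0.019), while its value against MyoD, 0.95 ± 0.33, missed the threshold (edgeR adjusted p = 0.0543) but was called by DESeq2, with the replicate block and without MyoD F/R/C replicate 2 (adjusted p down to 0.0154). The call of mt-Nd4 against MEF was lost without MEF replicate 2, MEF replicate 3 or MyoD F/R/C replicate 1 (edgeR adjusted p up to 0.0755). mt-Nd1 rose by 1.52 ± 0.31, mt-Nd3 by 1.65 ± 0.33, mt-Nd2 by 1.13 ± 0.28 and mt-Nd5 by 1.31 ± 0.34 against MEF (edgeR adjusted p = 0.00559, 0.00554, 0.014 and 0.0171). The call of mt-Nd2 was lost without MEF replicate 2 (edgeR adjusted p = 0.0615), and that of mt-Nd5 without MEF replicate 2 or MEF replicate 3 (up to 0.068). mt-Nd4l was the gene in which 1 library decided most, with 424, 160 and 161 CPM in MyoD F/R/C, 137, 120 and 150 CPM in MyoD and 143, 101 and 95.3 CPM in MEF libraries. Its rise of 1.13 ± 0.38 against MEF (edgeR adjusted p = 0.0457) was 0.51 without MyoD F/R/C replicate 1 (edgeR adjusted p = 0.129), and its call was also lost without any single MEF or MyoD library.

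mt-Nd6 is the only member read from the other strand, and in human cells its mRNA lacks the poly(A) tail of the others. It was the mitochondrial member of lowest level, with 24.8, 6.47 and 19.3 CPM in MyoD F/R/C libraries, 7.88, 3.4 and 5.2 CPM in MyoD libraries and 7.81, 3.26 and 4.57 CPM in MEF libraries, and the only one in which MyoD F/R/C libraries overlapped the other groups. It rose by 1.69 ± 0.56 against MEF (edgeR adjusted p = 0.0405), a call lost without MEF replicate 2 (0.133), MEF replicate 3 (0.102), MyoD F/R/C replicate 1 (0.134) or MyoD F/R/C replicate 3 (0.106). The sources do not state whether counting used strand, and 14 of its exon bases overlap mt-Nd5. mt-Atp6 and mt-Atp8, the membrane subunits of ATP synthase, share 13 of their 31-base stretches, which is 2.00% of those of mt-Atp6 and 7.47% of those of mt-Atp8. They rose by 1.19 ± 0.31 and 0.94 ± 0.30 against MEF (edgeR adjusted p = 0.0161 and 0.0358), and mt-Atp8 had 224, 108 and 122 CPM in MyoD F/R/C, 91.6, 77.6 and 102 CPM in MyoD and 99.4, 69.1 and 68.1 CPM in MEF libraries. The call of mt-Atp6 was lost without MEF replicate 2, MEF replicate 3 or MyoD F/R/C replicate 1 (edgeR adjusted p up to 0.071). Without MyoD F/R/C replicate 1 the value of mt-Atp8 was 0.55 (edgeR adjusted p = 0.11), and its call was also lost without MEF replicate 2 (0.127), MEF replicate 3 (0.111) or MyoD replicate 1 (0.0529).

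**Figure D4:**
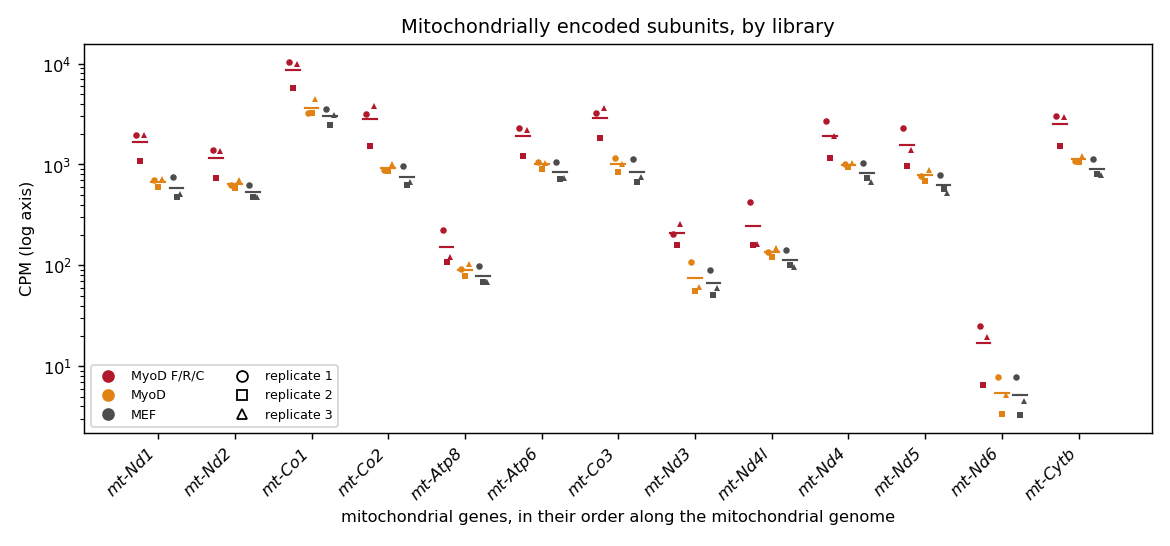
CPM of the 13 mitochondrial genes in each library on a log axis, in their order along the mitochondrial genome, with lines at the group means. The MyoD F/R/C libraries lie above the others for every gene except mt-Nd6, replicate 2 is the lowest of that group throughout, and mt-Nd6 is the lowest gene.

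The order of levels among the mitochondrial genes, per length, was led by complex IV. In MyoD F/R/C libraries mt-Co1 had 7928 ± 2679, mt-Co2 7273 ± 2733 and mt-Co3 5515 ± 1628 TPM (SD, n = 3 each), which did not differ beyond their spread. In MEF libraries mt-Co1 had 3532 ± 577, mt-Atp6 2745 ± 663, mt-Co2 2503 ± 621 and mt-Co3 2079 ± 609 TPM, so that mt-Atp6 stood above mt-Co2 and mt-Co3 in MEF libraries and below both in MyoD F/R/C libraries. In MyoD F/R/C libraries Cox5b, with all its transcripts summed, was the nuclear gene of highest level. It stood there between mt-Nd3 (1230 ± 185 TPM) and mt-Nd5 (1205 ± 681 TPM). The mitochondrial share of all counts was 3.09%, 1.54% and 2.61% in MyoD F/R/C libraries, 1.15%, 1.16% and 1.22% in MyoD libraries and 1.10%, 0.826% and 0.819% in MEF libraries.

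The balance of the genomes overlapped between the groups. The ratio of summed mitochondrial to summed nuclear TPM was 3.15, 1.46 and 1.56 in MyoD F/R/C libraries, 1.55, 1.53 and 1.62 in MyoD libraries and 1.87, 1.15 and 1.17 in MEF libraries. MyoD F/R/C replicate 1 and MEF replicate 1 were the highest of their groups, and the groups overlapped. Within the MyoD F/R/C group the genomes also ranked the libraries differently. In CPM, 63 of the 65 tested nuclear genes were highest in replicate 3, and none of the mitochondrial genes was lowest there. All 13 mitochondrial genes were lowest in replicate 2, and 9 were highest in replicate 1. In TPM, replicate 3 was highest for 59 of the 65 nuclear genes and replicate 1 for all 13 mitochondrial genes. Among MEF libraries, replicate 1 was highest for all 13 mitochondrial genes on both scales.

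With MyoD alone no respiratory chain gene passed the test. Between MyoD and MEF libraries none of the 65 nuclear and 13 mitochondrial genes was called, nor was any of the 15714 genes tested (0%) by edgeR, and none was called with the replicate number as a block, where 13 genes were called in all. At an unadjusted p under 0.05 there were 2 nuclear and 0 mitochondrial genes, beside 4.66% of all genes tested. DESeq2 called 1 nuclear member and 171 genes in all, and without MEF replicate 3, the MEF library with muscle transcripts, edgeR called 2 nuclear members and 161 genes in all. The 2 were Cox6a2 and Cox8b, which were named because the count is small. With all libraries their values were 3.01 ± 1.26 (edgeR adjusted p = 1) and 3.65 ± 0.95 (edgeR adjusted p = 0.481), and no MyoD library overlapped a MEF library in either. The median log2 fold change was 0.05 over the nuclear genes, of which 3 were higher and 1 lower without overlap, where 4.4% and 3.11% of all genes were (7.52% together). All 13 mitochondrial genes had positive values of 0.07 to 0.33, with a median of 0.26 beside -0.01 over all genes, and none was free of overlap.

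Other genes of oxidative metabolism were examined as lists, made up by function. Among the 18 nuclear ATP synthase genes, 16 rose and 0 fell in MyoD F/R/C against MEF libraries, with a median log2 fold change of 1.05. Atp5f1, of the peripheral stalk, had 287, 295 and 450 CPM in MyoD F/R/C, 124, 123 and 146 CPM in MyoD and 114, 127 and 135 CPM in MEF libraries, and rose by 1.46 ± 0.22 (edgeR adjusted p = 0.00166). Of 17 citrate cycle and pyruvate dehydrogenase genes, 13 rose and 0 fell (median 0.89), with Pdhb, a pyruvate dehydrogenase subunit, at 1.56 ± 0.19 and fumarase Fh1 at 1.27 ± 0.20 (edgeR adjusted p = 0.000757 and 0.00191). The shares that rose were 88.9% and 76.5% of these lists, beside 69.2% of the nuclear subunits and 19.5% of all genes.

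The assembly factors, which build the complexes but do not stay in them, were mixed. Of 47 tested, 15 rose, which is 31.9% beside 19.5% of all genes, and 2 fell, with a median of 0.47. Uqcc1, needed for cytochrome b, rose by 1.79 ± 0.24 (edgeR adjusted p = 0.00102), Sco1, a copper chaperone of complex IV, by 1.41 ± 0.20 (edgeR adjusted p = 0.00128) and Cox15, of heme a synthesis, by 1.15 ± 0.17 (edgeR adjusted p = 0.00145). Cox20, which accompanies the mitochondrially encoded subunit 2 into complex IV, had 5.67, 4.88 and 6.29 CPM in MyoD F/R/C, 8.24, 11.1 and 8.18 CPM in MyoD and 9.16, 10.5 and 9.55 CPM in MEF libraries, and changed by -0.80 ± 0.24 (edgeR adjusted p = 0.0315). Whether the share of assembly factors differs from that of the subunits was not tested.

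The genes that carry electrons between the complexes rose in part, 8 of 20 tested against 1 that fell (median 0.57). The share that rose was 40%, beside 19.5% of all genes. Cycs, the cytochrome c of body cells, had 68.9, 65.3 and 109 CPM in MyoD F/R/C libraries, 23.1, 20.7 and 38.6 CPM in MyoD libraries and 27.1, 21 and 28.7 CPM in MEF libraries, and rose by 1.66 ± 0.30 (edgeR adjusted p = 0.00375), while the testis form Cyct had 0 counts throughout. Cyc1, the cytochrome c1 subunit of complex III, rose by 1.74 ± 0.18 (edgeR adjusted p = 0.000471). Coq8a and Coq5, of coenzyme Q synthesis, rose by 3.81 ± 0.34 and 1.66 ± 0.20 (edgeR adjusted p = 0.00028 and 0.000727), Coq8a having 117, 155 and 156 CPM in MyoD F/R/C libraries, 19.6, 24.3 and 30.4 CPM in MyoD libraries and 6.37, 14.4 and 9.60 CPM in MEF libraries. Sqor, which feeds electrons from sulfide into coenzyme Q, changed by -1.90 ± 0.31 (edgeR adjusted p = 0.00229), with 14.2 ± 2.09 CPM in MyoD F/R/C, 69.8 ± 13.6 CPM in MyoD and 52.7 ± 20.4 CPM in MEF libraries.

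Of 30 genes that copy, transcribe and process mitochondrial DNA and RNA, 14 rose (46.7%, beside 19.5% of all genes) and 0 fell (median 0.66). Tfam, which packages the mitochondrial genome and starts its transcription, had 30.3, 32.4 and 48.6 CPM in MyoD F/R/C libraries, 25.3, 18.0 and 22.2 CPM in MyoD libraries and 25.7, 19.4 and 23.5 CPM in MEF libraries, and rose by 0.70 ± 0.24 (edgeR adjusted p = 0.0473). The mitochondrial RNA polymerase Polrmt had 0.23 ± 0.18 (edgeR adjusted p = 0.33), the transcription factor Tfb2m had -0.08 ± 0.21 (edgeR adjusted p = 0.782), and the libraries of Tfb2m overlapped. Tfb1m, which methylates mitochondrial ribosomal RNA, rose by 1.96 ± 0.29, the mRNA-stabilizing Lrpprc by 1.30 ± 0.20 and the DNA polymerase Polg by 0.91 ± 0.20 (edgeR adjusted p = 0.00169, 0.00201 and 0.00818).

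The regulators of mitochondrial biogenesis did not move together, with 7 rises and 1 fall among 21 tested (median 0.40). Rises made up 33.3%, beside 19.5% of all genes. Ppargc1b, a coactivator of oxidative genes, had 38.1, 36.6 and 18.1 CPM in MyoD F/R/C libraries, 0.403, 1.06 and 2.74 CPM in MyoD libraries and 0.233, 0.362 and 1.43 CPM in MEF libraries, and rose by 5.51 ± 0.90 against MEF (edgeR adjusted p = 0.0024) and by 4.47 ± 0.85 against MyoD (edgeR adjusted p = 0.00556). Its lowest MyoD F/R/C library was replicate 3, the one in which the nuclear subunits were highest. The better known Ppargc1a stayed low, with 2.69, 1.64 and 1.30 CPM in MyoD F/R/C, 0.537, 0.453 and 2.41 CPM in MyoD and 0.0465, 0.564 and 2.81 CPM in MEF libraries (0.72 ± 1.09, edgeR adjusted p = 0.635). Of the factors that bind promoters of respiratory genes, Esrra rose by 0.44 ± 0.14 (edgeR adjusted p = 0.0412), Nrf1 had 0.42 ± 0.20 (edgeR adjusted p = 0.133), Esrrg -0.26 ± 0.87 (edgeR adjusted p = 0.835), and Gabpa changed by -0.65 ± 0.17 (edgeR adjusted p = 0.0182), with 49.8, 44.9 and 36.2 CPM in MyoD F/R/C, 71.5, 62.3 and 70.6 CPM in MyoD and 60.7, 69.0 and 75.3 CPM in MEF libraries. Mef2c, a muscle transcription factor, rose by 4.80 ± 0.54 (edgeR adjusted p = 0.000568), Esrrb by 6.79 ± 0.94 (edgeR adjusted p = 0.00122) and Perm1, a muscle regulator of oxidative genes, by 2.26 ± 0.64 (edgeR adjusted p = 0.0232), but Esrrb stayed at 2.25 ± 0.694 CPM and Perm1 at 0.449 ± 0.152 CPM in MyoD F/R/C libraries.

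Of 10 tested genes of uncoupling and of exchange across the mitochondrial membranes, 6 rose and 0 fell (median 0.79). That is 60% rising, as in the list of import, chaperones and dynamics below, beside 19.5% of all genes. Ucp2 and Ucp3, relatives of the uncoupling protein Ucp1, had 88.2 ± 25.8 and 15 ± 5.75 CPM in MyoD F/R/C, 5.83 ± 2.77 and 1.03 ± 0.489 CPM in MyoD and 5.16 ± 4 and 0.211 ± 0.299 CPM in MEF libraries, with rises of 4.10 ± 0.62 and 6.13 ± 1.02 against MEF (edgeR adjusted p = 0.00169 and 0.00258). Ckmt2, the sarcomeric mitochondrial creatine kinase, had 31.4, 11.0 and 6.58 CPM in MyoD F/R/C libraries, 0.940, 0.415 and 0.818 CPM in MyoD libraries and 0, 0 and 0.185 CPM in MEF libraries, and rose by 7.97 ± 1.15 (edgeR adjusted p = 0.00142). Of 20 genes of mitochondrial import, chaperones and dynamics, 12 rose and 0 fell (median 0.73), among them Chchd3, of the cristae junctions, at 1.5 ± 0.25, Timm44, of protein import, at 1.11 ± 0.18 and the elongation factor Tufm at 1.09 ± 0.21 (edgeR adjusted p = 0.00243, 0.00226 and 0.0044).

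**Figure D5:**
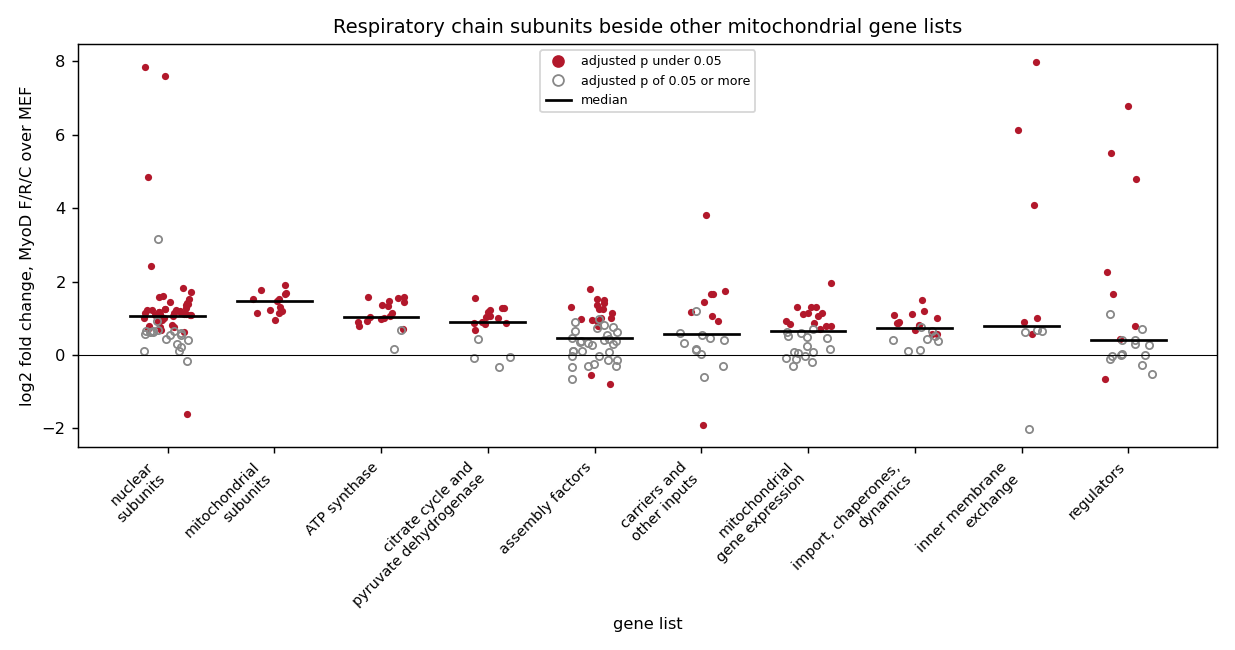
Log2 fold change, MyoD F/R/C over MEF, of every tested gene of the nuclear and mitochondrial subunits and of 8 other lists; filled points have an adjusted p under 0.05 and lines are medians. The medians run from 0.40 for the regulators to 1.46 for the mitochondrial subunits, and Cox6a2 and Cox8b lie near the muscle creatine kinase Ckmt2 at the top.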

How the data were processed

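The submitters' processing notes name bcl2fastq 2.19, Trimmomatic 0.36, kallisto 0.44, edgeR 3.28 and the GRCm38.p6 build. The deposited tables hold kallisto's estimated counts and TPM per transcript. The deposited TPM were made by the authors with that tool's length correction, per the file headers. The annotation release, kallisto options and strand setting are not given in the sources used here. Libraries came from poly(A) RNA with a stranded kit, per the labels' protocols.

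Here the estimated counts were summed per gene with GENCODE M21, which joined 121104 of 121843 transcripts (the others held 0.200% to 0.494% of counts), and rounded. The sums take in transcripts of every annotated type, protein-coding or not. edgeR's filterByExpr (minimum count 10, minimum total 15) kept 15714 genes. One edgeR 4.0.16 quasi-likelihood fit (R 4.3.3, TMM scaling) over all 9 libraries, with a mean per group, gave every comparison; SEs are the log2 fold change over the square root of F. The comparisons share libraries, so they are not independent. Total counts ran from 21112071 to 24291056 per library. The procedure was tested on simulated data, in which none of the smaller and a minority of the larger changes were recovered. Far fewer genes were changed there than were called in MyoD F/R/C against MEF, so this recovery does not carry over to these data. A gene not called is still not shown to be unchanged. DESeq2 1.42.0, other scalings and filters, a replicate block and leaving out libraries were alternatives. The members and lists were chosen with earlier results of these data known. The genes named are the mitochondrial members, the complex IV paralogs, Ndufa4 and Ndufa4l2, the nuclear members of smallest p in each complex, and in each list chosen regulators with the genes of smallest p; Cox5b, Ndufs8, Ndufab1 and the defining markers at or near 0 lie outside that rule and were named after their values were seen. Exact permutation of 3 against 3 libraries cannot go below p = 0.1, and none was used.

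The deviations of same-numbered MyoD and MEF libraries from their group means correlated at 0.695 to 0.766. The main fit did not use this pairing, which was found from the data, so its fold changes and p-values are unpaired. The counts of genes called with the replicate block stand beside that comparison. Promoter windows are RefSeq's (GRCm38.p6). Heart, brown fat, macrophage, endothelial, epithelial, fibroblast, germ cell and muscle markers were examined as lists. A few results that the naming rule selects are not reported here.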

Additional observations from a re-analysis of the deposited data

How the results depend on the processing

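Direction was kept by the named members under the 18 or 19 alternatives run for each, except Cox6a1 against MyoD, which ranged from -0.337 to 0.0564 when single libraries were left out, the positive value being the one without MyoD F/R/C replicate 1. Called mitochondrial genes ranged from 6 to 13 against MEF and from 3 to 11 against MyoD when single libraries were left out, and were 5 against MyoD with these groups alone. Called nuclear genes ranged from 33 to 49 and from 25 to 48, and their medians from 0.72 to 1.22 and from 0.66 to 1.16. Between MyoD and MEF, the nuclear genes called were 1 by DESeq2 (171 of all genes), 2 without MEF replicate 3 (161 of all genes) and 2 without the third library of both groups (199 of all genes); the nuclear median there was -0.01 without MyoD replicate 3, and 11 genes of all were called without the filter and 13 with the replicate block. With the replicate block 54 nuclear and 13 mitochondrial genes were called against MEF, and 51 and 12 against MyoD. The all-gene counts of these blocked fits, and of the ranges of called nuclear genes above, are not given here. Those member counts are therefore not set against a background. The MyoD F/R/C libraries correlated with the same numbers of the other groups at only 0.0809 to 0.151, although each correlated best with its own number. Whether these libraries are paired was not tested. In CPM in place of TPM, the share in MyoD F/R/C libraries was 52.6% for Cox6a2, 5.16% for Cox7a1 and 12.0% for Cox8b, and 0.859% for Cox7a1 in MyoD libraries, since CPM does not divide by length. Scaling by total counts alone shifted the median of all genes by -0.19 in MyoD F/R/C against MyoD, where the nuclear median was 0.81. The cause of the other changes was not tested. Depth limits Cox7a1 and Cox8b, at 0 to 10 counts in MEF libraries.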
